A study of Homo sapiens with 60 samples.

Results

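The genes described here are 10 drug- and fatty-acid-metabolising enzymes of HT29 cells, a human colorectal adenocarcinoma line, out of 60675 gene identifiers in the deposited count table. They were taken by name: the symbols CYP2B6, CYP2S1, CYP3A5, CYP3A7, CYP4F3, CYP4F11, EPHX1, CES2, AADAC and SULT1A1 were mapped to Ensembl identifiers, each matched 1 row, and all 10 had enough counts to be tested. These genes and the gene lists below were chosen with earlier results of these data known, which limits what their counts beside all genes can show. The cells were exposed for 24 h to tonifying herbal extracts at 3 doses, and RNA-seq was run on 60 libraries. Hot water extracts of the formulas Palmul-tang and Sibjeondaebo-tang, and ethanol extracts of the herbs Poria Cocos, Atractylodis Rhizoma and Panax Ginseng, were given at 20, 100 and 500 µg/mL. Glycyrrhizae Radix (licorice root, ethanol extract) was given at 14, 70 and 350 µg/mL and Angelicae Gigantis Radix (ethanol extract) at 12.8, 64 and 320 µg/mL, because the design text sets the top dose at the extract's own IC20 where that lay under 500 µg/mL. Each of the first 6 extracts had 3 libraries per dose, Angelicae Gigantis Radix had 1 library per dose, and the vehicle group (DMSO, 0.1% in the labels and 2% in the design text) had 3. The labels give no DMSO percentage for the extract libraries, so whether their solvent matched that of vehicle is not known. All groups share the same line, the same exposure time and the batch label BatchC in their titles. Whether the 3 libraries of a group are separate cultures is not stated in the labels. The p-values therefore cover only the spread between libraries, which may be technical.

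Cytochromes P450 are haem enzymes of the endoplasmic reticulum that insert oxygen into drugs, steroids and fatty acids, with electrons passed on by the reductase POR. Members of families CYP2 and CYP3 handle many drugs and are known in liver and gut as targets of the xenobiotic receptors PXR (encoded by NR1I2), CAR and AHR. CYP4F enzymes oxidise the far end of fatty acids and eicosanoids. Epoxide hydrolase and the carboxylesterases open epoxides and ester bonds, and sulfotransferases then conjugate the products for excretion.

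Library totals were 19.31 to 29.62 M estimated counts (median 25.05 M), with 19.79 to 20.88 M in the vehicle libraries. The share of counts on mitochondrial genes averaged 6.83% to 8.83% in the 18 treated groups with 3 libraries and 10.2% in vehicle, and vehicle library 3 stood apart in several genes below. Library 1 of the Poria Cocos low dose also stood apart: its mitochondrial share was 9.71%, against 6.69% and 7.61% in libraries 2 and 3, and its log2 CPM correlated with theirs at 0.9865 and 0.9879, the lowest values of all replicate pairs. All 10 colon epithelium markers were above 1 CPM (counts scaled to the TMM-adjusted library size) in some library, with a summed level of 11900 to 13000 CPM over groups. Hepatocyte markers summed to 326 to 473 CPM, nearly all of it SERPINA1, while 6 of 7 (ALB, APOA1 and APOB among them) stayed under 1 CPM in every library. Of the leukocyte markers 3 of 5 stayed under 1 CPM (PTPRC and CD3E at or near 0), and the sum of 1380 to 1600 CPM was nearly all LYZ. Fibroblast markers summed to 1.74 to 3.55 CPM (4 of 6 under 1 CPM) and endothelium markers to 1.37 to 2.07 CPM (2 of 3 under 1 CPM).

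Levels between genes were compared as CPM per kilobase of exon. In vehicle EPHX1 stood highest at 52.3 ± 3.17, followed by CYP2S1 at 24.4 ± 4.56, CYP3A5 at 15.5 ± 1.01 and CES2 at 7.90 ± 0.307 CPM per kb (SD, n = 3 each). AADAC at 1.75 ± 0.555 and SULT1A1 at 1.63 ± 0.0558 CPM per kb differed by less than their spread, and CYP2B6 came next at 0.841 ± 0.142 CPM per kb. The lowest 3, CYP4F3 at 0.306 ± 0.0567, CYP4F11 at 0.278 ± 0.0444 and CYP3A7 at 0.251 ± 0.0769 CPM per kb, also lay within their spread of each other. With the longest transcript as the length, CYP3A5 (31.7 CPM per kb) stood above CYP2S1 (25.2 CPM per kb), so the order of these 2 depends on the gene model. CYP3A4, the main drug-metabolising CYP3A of adult liver, was at 0.102 CPM or less in the mean of every group with 3 libraries and was not tested. The range over groups was widest for CYP4F11, whose highest group mean was 5.16 times its lowest, and narrowest for CES2, with a ratio of 1.14.

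Within an extract, high against low dose uses no vehicle library, and libraries of an extract carry the same leading number in their sample names. That number is called the set number here, and the labels do not say what it stands for. A gene was called when edgeR's quasi-likelihood test, with Benjamini-Hochberg adjustment over 16445 genes in each comparison, gave an adjusted p below 0.05. Of 60 tests (10 genes in 6 extracts) 17 were called, all higher at the high dose. CYP4F3, CYP4F11 and EPHX1 rose in the 4 single-herb extracts, AADAC rose in 3 of them, and CYP2B6 and CYP3A5 rose in Glycyrrhizae Radix. CYP2S1, CYP3A7, CES2 and SULT1A1 passed the test in none of the 6 extracts. By extract, the high dose raised 6 of 10 genes in Glycyrrhizae Radix, where 24.9% of all tested genes were called, so this count is to be read against a large response. It raised 4 of 10 in Atractylodis Rhizoma, where 3.95% of all genes were called, 4 of 10 in Panax Ginseng, where 2.52% were called, and 3 of 10 in Poria Cocos, where 1.85% were called. No member was called in Palmul-tang, where 0.152% of all genes were called (25 genes, with 1084 at an unadjusted p below 0.05), nor in Sibjeondaebo-tang, where 0.371% were called (61 genes, with 1814 unadjusted). DESeq2, which gave no adjusted p for 5 of the 10 members in either formula, called CYP3A5 and EPHX1 in Palmul-tang and no member in Sibjeondaebo-tang. The median log2 fold change over the 10 genes was 0.50 in Glycyrrhizae Radix, 0.16 in Poria Cocos, 0.15 in Panax Ginseng, 0.08 in Atractylodis Rhizoma and 0.06 in each formula, against -0.01 to 0.00 over all tested genes. Fewer cells of a kind and less RNA per cell cannot be told apart in these bulk libraries, and cell number was not measured here.

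**Figure D1:**
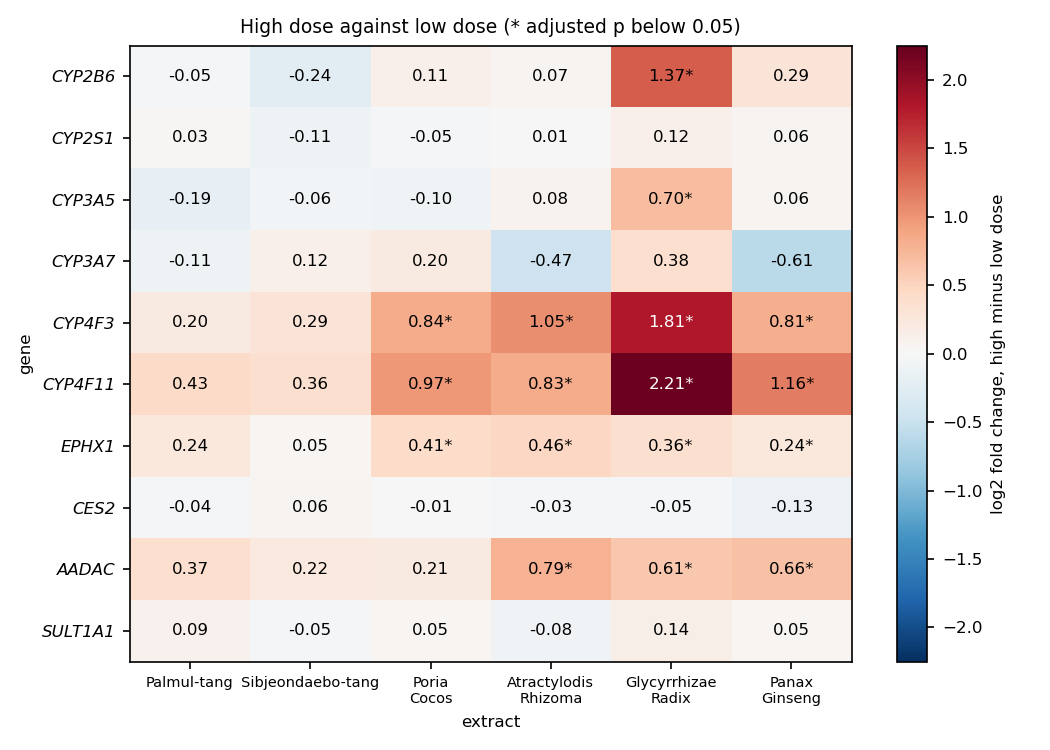
Log2 fold change, high minus low dose, for the 10 genes (rows) in the 6 extracts with 3 libraries per dose (columns). Stars mark an adjusted p below 0.05 in edgeR's quasi-likelihood test. The 17 stars lie in the 4 single-herb columns and the strongest value is 2.21 for CYP4F11 in Glycyrrhizae Radix.

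The lower step of the dose series gave no call. Of 60 tests of medium against low dose 0 were called by edgeR, 3 had an unadjusted p below 0.05, and DESeq2 called 0. Over all genes 0.00608% were called (1 gene) in each of Palmul-tang, Sibjeondaebo-tang and Atractylodis Rhizoma, and 0.0% in Poria Cocos, Glycyrrhizae Radix and Panax Ginseng, with 504 to 1044 genes per extract at an unadjusted p below 0.05. The members' log2 fold changes at this step ran from -0.36 (CYP3A7 in Palmul-tang) to 0.50 (CYP4F11 in Sibjeondaebo-tang).

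CYP4F3 inactivates leukotriene B4 in neutrophils and hydroxylates long-chain fatty acids in other tissues, and CYP4F11 hydroxylates long-chain fatty acids and vitamin K. Both lie in one stretch of chromosome 19 (GRCh38 coordinates here and below, CYP4F3 at 15640897 to 15662825 on the plus strand and CYP4F11 at 15912367 to 15934867 on the minus strand). In Glycyrrhizae Radix CYP4F11 had 5.14, 4.92 and 4.503 CPM at the high dose, against 0.681, 1.57 and 0.988 CPM at the low dose. All 3 high-dose libraries lay above every low-dose, medium-dose and vehicle library. The log2 fold change was 2.21 ± 0.21 (SE), a 4.62-fold difference, with an adjusted p of 2.8e-12. In Panax Ginseng CYP4F11 had 2.27, 1.97 and 1.99 CPM at the high dose and 0.887, 0.719 and 1.21 CPM at the low dose, without overlap. That difference was 1.16 ± 0.23 (log2, SE) at an adjusted p of 0.0013. In Poria Cocos it had 2.14, 2.52 and 2.17 CPM at the high dose, against 1.44, 1.31 and 0.762 CPM at the low dose. The groups did not overlap, and the difference was 0.97 ± 0.21 (log2, SE, adjusted p = 0.0065). In Atractylodis Rhizoma CYP4F11 had 2.21, 1.78 and 1.35 CPM at the high dose and 0.959, 0.965 and 1.07 CPM at the low dose. That difference of 0.83 ± 0.22 (log2, SE) had an adjusted p of 0.020, and it was lost without library 1 (0.65, adjusted p = 0.21) or 2 (0.83, adjusted p = 0.055) of the high dose or library 1 (0.80, adjusted p = 0.072) or 2 (0.81, adjusted p = 0.074) of the low dose (adjusted p over all alternatives 0.0087 to 0.21). In Palmul-tang CYP4F11 averaged 1.39 ± 0.105 CPM at the high dose and 1.03 ± 0.208 CPM at the low dose (SD, n = 3 each), without overlap, a log2 difference of 0.43 ± 0.23 (SE) that missed the threshold (edgeR adjusted p = 0.80). In Sibjeondaebo-tang the difference was 0.36 ± 0.24 (log2, SE, adjusted p = 0.63).

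CYP4F3 moved in the same 4 extracts. In Glycyrrhizae Radix it had 6.08, 5.38 and 4.63 CPM at the high dose, against 1.59, 1.77 and 1.27 CPM at the low dose, a difference of 1.81 ± 0.19 (log2, SE) or 3.50-fold at an adjusted p of 8.3e-11. The lowest high-dose library lay above every other library of the study for this gene. In Atractylodis Rhizoma CYP4F3 had 3.54, 2.64 and 3.85 CPM at the high dose and 1.71, 1.27 and 1.84 CPM at the low dose (log2 difference 1.05 ± 0.19, SE, adjusted p = 0.00022). In Poria Cocos the high-dose libraries lay close together at 3.14, 3.23 and 3.13 CPM, above 1.95, 1.71 and 1.65 CPM at the low dose. That difference was 0.84 ± 0.19 (log2, SE) at an adjusted p of 0.0095. Panax Ginseng had 2.06, 2.62 and 3.13 CPM at the high dose and 1.47, 1.14 and 1.85 CPM at the low dose, and the groups did not overlap. Its difference of 0.81 ± 0.21 (log2, SE, adjusted p = 0.021) was the least firm. It was lost without high-dose library 2 (0.80) or 3 (0.66), without low-dose library 1 (0.81) or 2 (0.65), and in a fit of the compared groups alone (adjusted p over all alternatives 0.0088 to 0.19). The Poria Cocos calls of CYP4F3 and CYP4F11 were lost without low-dose library 3, at 0.79 and 0.73 (log2) with adjusted p of 0.06 and 0.1. Over all alternatives their adjusted p ran from 0.00098 to 0.06 and from 0.0021 to 0.13, and CYP4F11 without high-dose library 2 was at 0.89 (adjusted p = 0.05). The 0.13, also a lost call, came from an alternative that left out no library. Without low-dose library 1, which stood apart, the Poria Cocos differences were 0.92 for CYP4F3, 1.14 for CYP4F11 and 0.41 for EPHX1 (log2; adjusted p of 0.017, 0.0052 and 0.00018). Pooled over the 18 treated groups, the mean log2 CPM of CYP4F3 and CYP4F11 correlated at r = 0.95, and at 0.90 over the 17 groups without the Glycyrrhizae Radix high dose. These group means come from the same libraries, so r is a description.

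Sequence upstream of a RefSeq start of CYP4F3 and of CYP4F11 is shown because the 2 genes moved in the same extracts. RefSeq promoter windows of GRCh38.p14 (250 bases before the annotated start) were found for 9 of the 10 genes, 13 windows in all. The 2 windows printed here lie inside the gene coordinates given above, so each precedes a start within the gene and not its outermost start. The CYP4F3 window, chr19:15641062-15641311 on the plus strand, and the second CYP4F11 window, chr19:15934530-15934779 on the minus strand, were 59.8% identical over 281 aligned positions, and capitals mark their longest shared run, 19 bases that start at -165 in CYP4F3 and -137 in CYP4F11.
CYP4F3: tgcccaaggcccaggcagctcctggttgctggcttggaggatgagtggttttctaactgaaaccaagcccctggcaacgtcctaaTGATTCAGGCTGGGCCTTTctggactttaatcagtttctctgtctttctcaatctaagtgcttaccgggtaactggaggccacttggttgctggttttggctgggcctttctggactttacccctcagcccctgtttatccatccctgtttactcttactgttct
CYP4F11: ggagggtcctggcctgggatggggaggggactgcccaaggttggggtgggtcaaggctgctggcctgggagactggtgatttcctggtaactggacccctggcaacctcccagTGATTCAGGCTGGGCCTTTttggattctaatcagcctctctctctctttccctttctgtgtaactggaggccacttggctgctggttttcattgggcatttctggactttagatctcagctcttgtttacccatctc
The other CYP4F11 window was 37.6% identical to that of CYP4F3 over 258 aligned positions, and they shared no run longer than 8 bases. By the same alignment the windows of CYP3A5 and CYP3A7 were 47.9% identical over 257 positions. Their longest shared run was 30 bases. The antioxidant response element core TGACNNNGC, searched on both strands, occurred in the first CYP4F11 window at -156 to -148 and in neither window printed here, and 10.9% of all 35116 RefSeq windows hold it. The core also occurred in windows of CYP2B6 (-41 to -33) and EPHX1 (-78 to -70). A match of letters is a description and not a binding site.

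CYP2B6 hydroxylates bupropion, efavirenz and cyclophosphamide and is a known CAR and PXR target in liver. It lies on chromosome 19 at 40991250 to 41018398, plus strand. In Glycyrrhizae Radix it had 6.45, 7.12 and 7.58 CPM at the high dose, against 2.27, 2.83 and 3.12 CPM at the low dose. Every high-dose library lay above every library of any other group. The log2 fold change was 1.37 ± 0.13 (SE), or 2.58-fold, at an adjusted p of 3.8e-12. In the other 5 extracts the dose differences ran from -0.24 (Sibjeondaebo-tang) to 0.29 (Panax Ginseng) on the log2 scale, and none was called. Panax Ginseng had 3.36, 4.19 and 4.43 CPM at the high dose and 3.12, 3.09 and 3.59 CPM at the low dose, and these groups overlapped (adjusted p = 0.34).

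CYP3A5, the CYP3A enzyme best known outside the liver, lies on chromosome 7 at 99648194 to 99680026, minus strand. At the high dose of Glycyrrhizae Radix it had 171.6, 167.3 and 169.5 CPM, against 105.4, 104.5 and 103.3 CPM at the low dose. The next highest library of any group had 119.8 CPM. The log2 fold change was 0.70 ± 0.04 (SE), or 1.62-fold, at an adjusted p of 7e-18, the smallest p among the members. The medium dose had 104.6, 103.9 and 97.8 CPM, within the range of the vehicle libraries (106.7, 111.0 and 97.6 CPM). In Palmul-tang CYP3A5 had 104.6, 98.7 and 101.9 CPM at the high dose and 116.8, 113.1 and 117.0 CPM at the low dose. These groups did not overlap, but the difference of -0.19 ± 0.04 (log2, SE) missed the threshold (adjusted p = 0.069). It passed by DESeq2, with the replicate block and when the mitochondrial share entered the fit (adjusted p over all alternatives 0.014 to 0.37).

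CYP3A7, the CYP3A enzyme of fetal liver, lies beside CYP3A5 on chromosome 7 at 99684957 to 99735196, minus strand. It had 9 to 33 counts per library, and 37.7% of its 100-base stretches occur in other annotated genes, mostly in the read-through transcript CYP3A7-CYP3A51P and in CYP3A4, so its counts are uncertain. At the high dose of Glycyrrhizae Radix it had 1.23, 0.769 and 0.563 CPM, against 0.530, 0.757 and 0.712 CPM at the low dose. The groups overlapped, and the difference of 0.38 ± 0.30 (log2, SE) was not called (adjusted p = 0.40). Its dose differences in the other 5 extracts ran from -0.61 in Panax Ginseng to 0.20 in Poria Cocos.

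The promoter windows of these neighbours are shown because CYP3A5 rose in Glycyrrhizae Radix and CYP3A7 was not called. The 2 genes were not tested against each other. CYP3A7, at 0.38 ± 0.30 (log2, SE) on 9 to 33 counts per library, may have risen too. The part of the motif below in either value was not tested. The everted repeat ER6, known from the CYP3A4 promoter as a sequence that PXR binds, was searched on both strands as TGAACT and AGGTCA with any 6 bases between them. It occurred without a mismatch in 3 of 35116 windows (0.00854%), those of CYP3A4, CYP3A5 and ITGB1BP2. In CYP3A5 (chr7:99679997-99680246, minus strand) it lies at -113 to -96 from the start, and in CYP3A7 (chr7:99735197-99735446, minus strand) the best match, at -168 to -151, carries 1 substitution, G2T, counted from the 5′ end of the motif. Capitals mark these 18 bases.
CYP3A5: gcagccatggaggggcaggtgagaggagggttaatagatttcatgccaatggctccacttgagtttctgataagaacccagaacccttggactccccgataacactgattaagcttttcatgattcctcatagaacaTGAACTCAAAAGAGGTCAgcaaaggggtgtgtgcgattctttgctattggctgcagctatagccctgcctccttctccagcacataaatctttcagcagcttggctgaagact
CYP3A7: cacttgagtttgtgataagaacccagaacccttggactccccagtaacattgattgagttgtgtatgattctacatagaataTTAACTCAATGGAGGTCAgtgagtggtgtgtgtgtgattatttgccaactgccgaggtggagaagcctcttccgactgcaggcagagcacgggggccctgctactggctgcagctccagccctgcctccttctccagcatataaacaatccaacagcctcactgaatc
NR1I2, which encodes PXR, was at 0.0308 ± 0.0272 CPM at the high dose of Glycyrrhizae Radix and 0.106 ± 0.0853 CPM at the low dose (SD, n = 3 each), and at no more than 0.143 CPM in the mean of any group with 3 libraries, too low to be tested. The single half-site AGGTCA, which the ER6 motif contains, occurred in windows of CYP2B6, CYP2S1, CYP3A5, CYP3A7 and EPHX1, and 12.1% of all windows hold it.

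**Figure D2:**
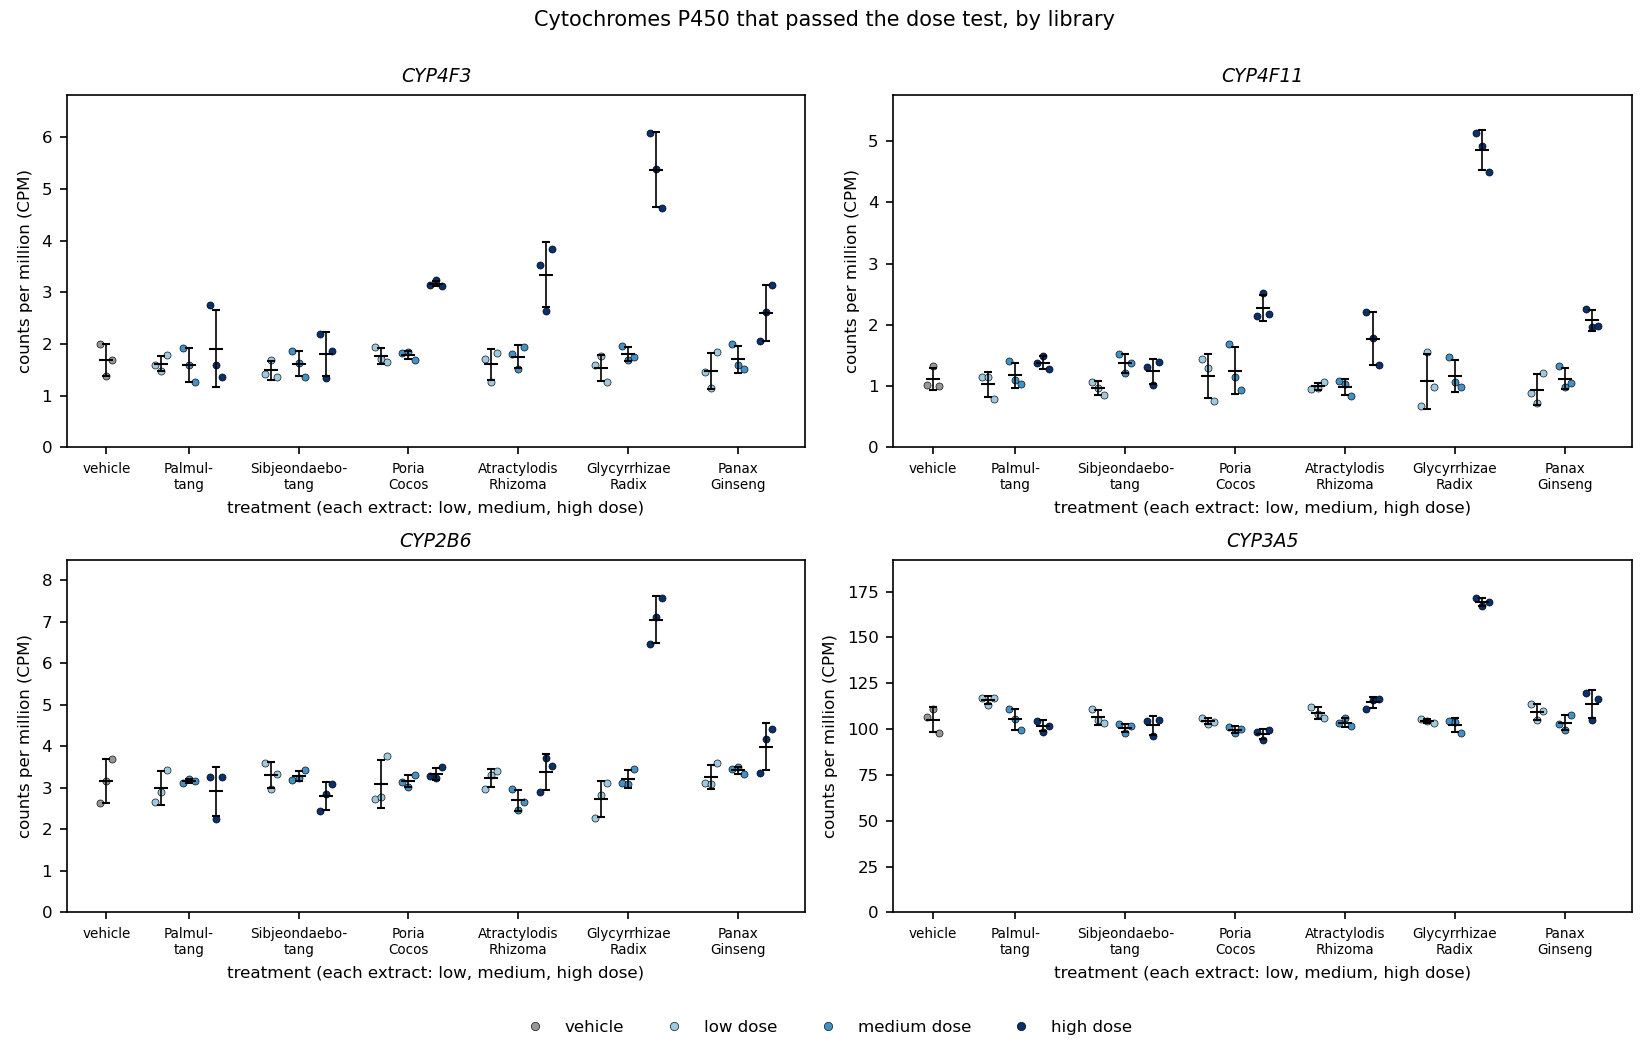
CPM of CYP4F3, CYP4F11, CYP2B6 and CYP3A5 in every library (points), with the group mean and SD (bars, n = 3), for vehicle and for each of 6 extracts at the low, medium and high dose from left to right. Axes start at 0. CYP2B6 and CYP3A5 stand apart at the high dose of Glycyrrhizae Radix (6.45 to 7.58 and 167.3 to 171.6 CPM), while CYP4F3 and CYP4F11 are also raised at the high doses of the other 3 single herbs.

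CYP2S1, an AHR-regulated cytochrome of surface epithelia, lies on chromosome 19 at 41193049 to 41207539, plus strand. Its dose differences ran from -0.11 (Sibjeondaebo-tang) to 0.12 (Glycyrrhizae Radix) on the log2 scale, each with a standard error of 0.09. At the high dose of Glycyrrhizae Radix it had 61.0, 68.7 and 70.5 CPM, against 60.9, 65.4 and 57.8 CPM at the low dose, and the groups overlapped (adjusted p = 0.35).

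EPHX1 is the microsomal epoxide hydrolase and a reported target of the oxidative stress factor NRF2. It lies on chromosome 1 at 225810092 to 225845563, plus strand, and overlaps TMEM63A on the opposite strand, which had 129.6 CPM in vehicle. The sources used here do not say whether strand was used in counting, so reads of the 2 genes may be mixed where they overlap. EPHX1 had the highest level of the 10 and moved by modest folds. In Atractylodis Rhizoma it had 161.6, 143.4 and 161.1 CPM at the high dose, against 115.8, 119.5 and 102.5 CPM at the low dose (log2 difference 0.46 ± 0.06, SE, adjusted p = 5.4e-07). In Poria Cocos it had 170.3, 157.0 and 152.9 CPM at the high dose and 120.5, 121.3 and 120.2 CPM at the low dose (0.41 ± 0.06, adjusted p = 1.3e-05). In Glycyrrhizae Radix it had 150.3, 162.1 and 170.3 CPM at the high dose, against 131.0, 128.8 and 115.1 CPM at the low dose (0.36 ± 0.06, adjusted p = 6.5e-06). None of these groups overlapped. In Panax Ginseng it had 141.1, 148.3 and 127.9 CPM at the high dose and 118.6, 124.5 and 110.9 CPM at the low dose, and the difference of 0.24 ± 0.06 (log2, SE, adjusted p = 0.023) was lost without high-dose library 1 (0.23) or 2 (0.19) or low-dose library 1 (0.24) or 3 (0.20) and in a fit of the compared groups alone (adjusted p over all alternatives 0.00046 to 0.17). In Palmul-tang EPHX1 had 120.9, 134.5 and 124.9 CPM at the high dose and 108.8, 108.5 and 105.8 CPM at the low dose without overlap. That difference was of the same size, 0.24 ± 0.06 (log2, SE), but missed the threshold (edgeR adjusted p = 0.13). It passed by DESeq2 (adjusted p = 0.043) and with no filter on low counts (adjusted p = 0.0014), and its adjusted p over all alternatives ran from 0.0014 to 0.59. In Sibjeondaebo-tang the difference was 0.05 ± 0.06 (log2, SE). The low doses themselves lay below vehicle, by -0.28 to -0.07 (log2) over the 6 extracts, so the rises above start from a low reference. Against vehicle the high dose was called higher in Poria Cocos, Atractylodis Rhizoma and Glycyrrhizae Radix. It was not called in Panax Ginseng (139.1 ± 10.4 against 131.2 ± 7.96 CPM in vehicle, SD, n = 3 each), where the groups overlapped.

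AADAC, an endoplasmic reticulum esterase that deacetylates arylacetamides such as flutamide and phenacetin, lies on chromosome 3 at 151814037 to 151828488, plus strand. It had 36 to 143 counts per library. In Atractylodis Rhizoma it had 5.44, 4.73 and 4.58 CPM at the high dose, against 2.84, 3.05 and 2.64 CPM at the low dose, a difference of 0.79 ± 0.16 (log2, SE) at an adjusted p of 0.0013. In Glycyrrhizae Radix it had 5.10, 4.61 and 4.55 CPM at the high dose and 3.26, 2.98 and 3.08 CPM at the low dose (0.61 ± 0.17, adjusted p = 0.0044). Panax Ginseng had 4.32, 4.39 and 3.98 CPM at the high dose and 2.54, 2.79 and 2.72 CPM at the low dose. All 3 pairs of groups were separate. The Panax Ginseng difference of 0.66 ± 0.17 (log2, SE, adjusted p = 0.026) was lost without high-dose library 1 (0.64) or 2 (0.63) or without low-dose library 1 (0.62), 2 (0.69) or 3 (0.67) (adjusted p over all alternatives 0.0059 to 0.12). In Poria Cocos AADAC had 3.36, 2.66 and 3.28 CPM at the high dose and 2.65, 2.98 and 2.37 CPM at the low dose, with overlap and no call (0.21 ± 0.18, adjusted p = 0.67). In Palmul-tang high-dose libraries spread widely, at 4.95, 3.78 and 2.97 CPM, against 2.81, 3.72 and 2.45 CPM at the low dose (edgeR adjusted p = 0.73).

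CES2, the main intestinal carboxylesterase, which releases the active form of irinotecan, lies on chromosome 16 at 66934444 to 66945096, plus strand. Its dose differences ran from -0.13 (Panax Ginseng) to 0.06 (Sibjeondaebo-tang) on the log2 scale, each with a standard error of 0.06, and none was called. At the high dose of Glycyrrhizae Radix it had 41.3, 43.3 and 40.1 CPM, against 43.2, 41.3 and 44.7 CPM at the low dose, and the groups overlapped. SULT1A1, the phenol sulfotransferase and the one conjugating enzyme among the 10, lies on chromosome 16 at 28605196 to 28623625, minus strand. At the high dose of Glycyrrhizae Radix SULT1A1 had 15.8, 17.0 and 16.6 CPM, against 14.6, 15.7 and 14.7 CPM at the low dose. These groups did not overlap, yet the difference of 0.14 ± 0.09 (log2, SE) was not called (adjusted p = 0.27). In the other extracts it ran from -0.08 to 0.09. Of the 100-base stretches of SULT1A1 5.89% occur in other genes, among them the read-through genes SLX1A-SULT1A3 and SLX1B-SULT1A4, so part of its counts is uncertain.

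**Figure D3:**
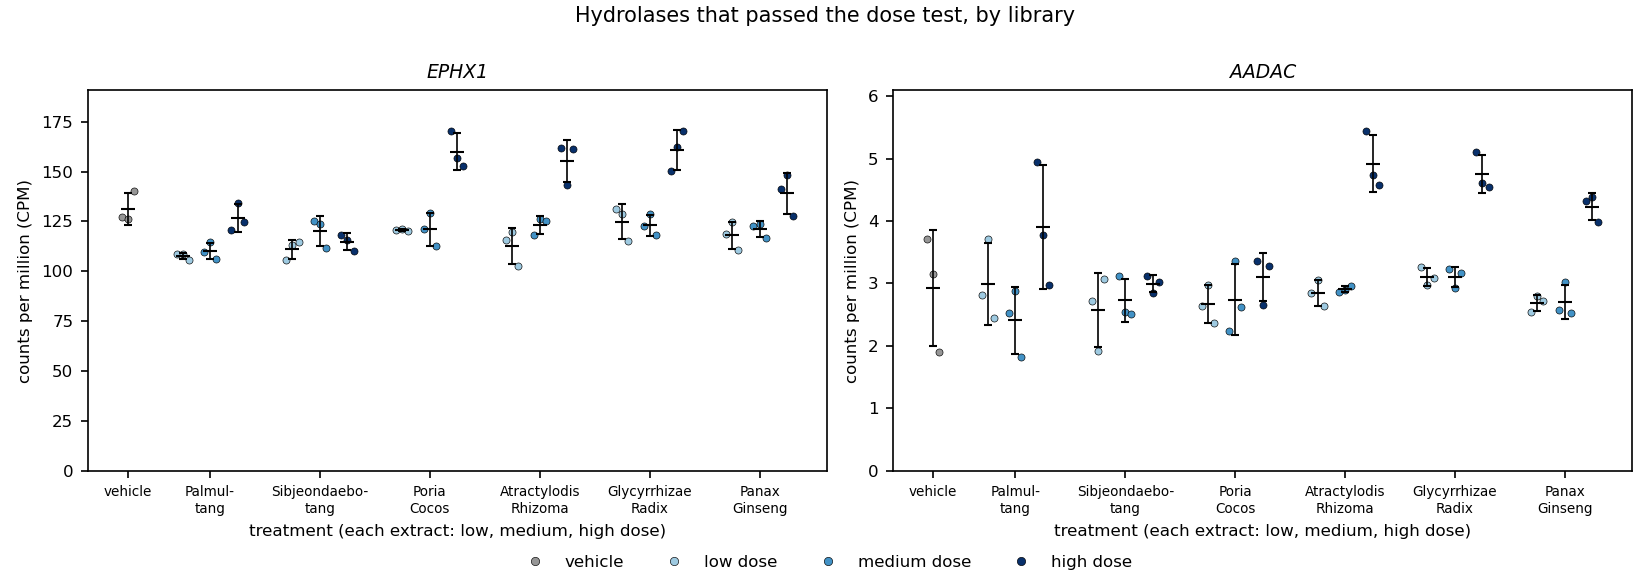
CPM of EPHX1 and AADAC in every library (points), with the group mean and SD (bars, n = 3), for vehicle and for each of 6 extracts at the low, medium and high dose from left to right. Axes start at 0. High-dose EPHX1 reaches 150.3 to 170.3 CPM in Glycyrrhizae Radix, and AADAC in vehicle spans 1.90 to 3.71 CPM.

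**Figure D4:**
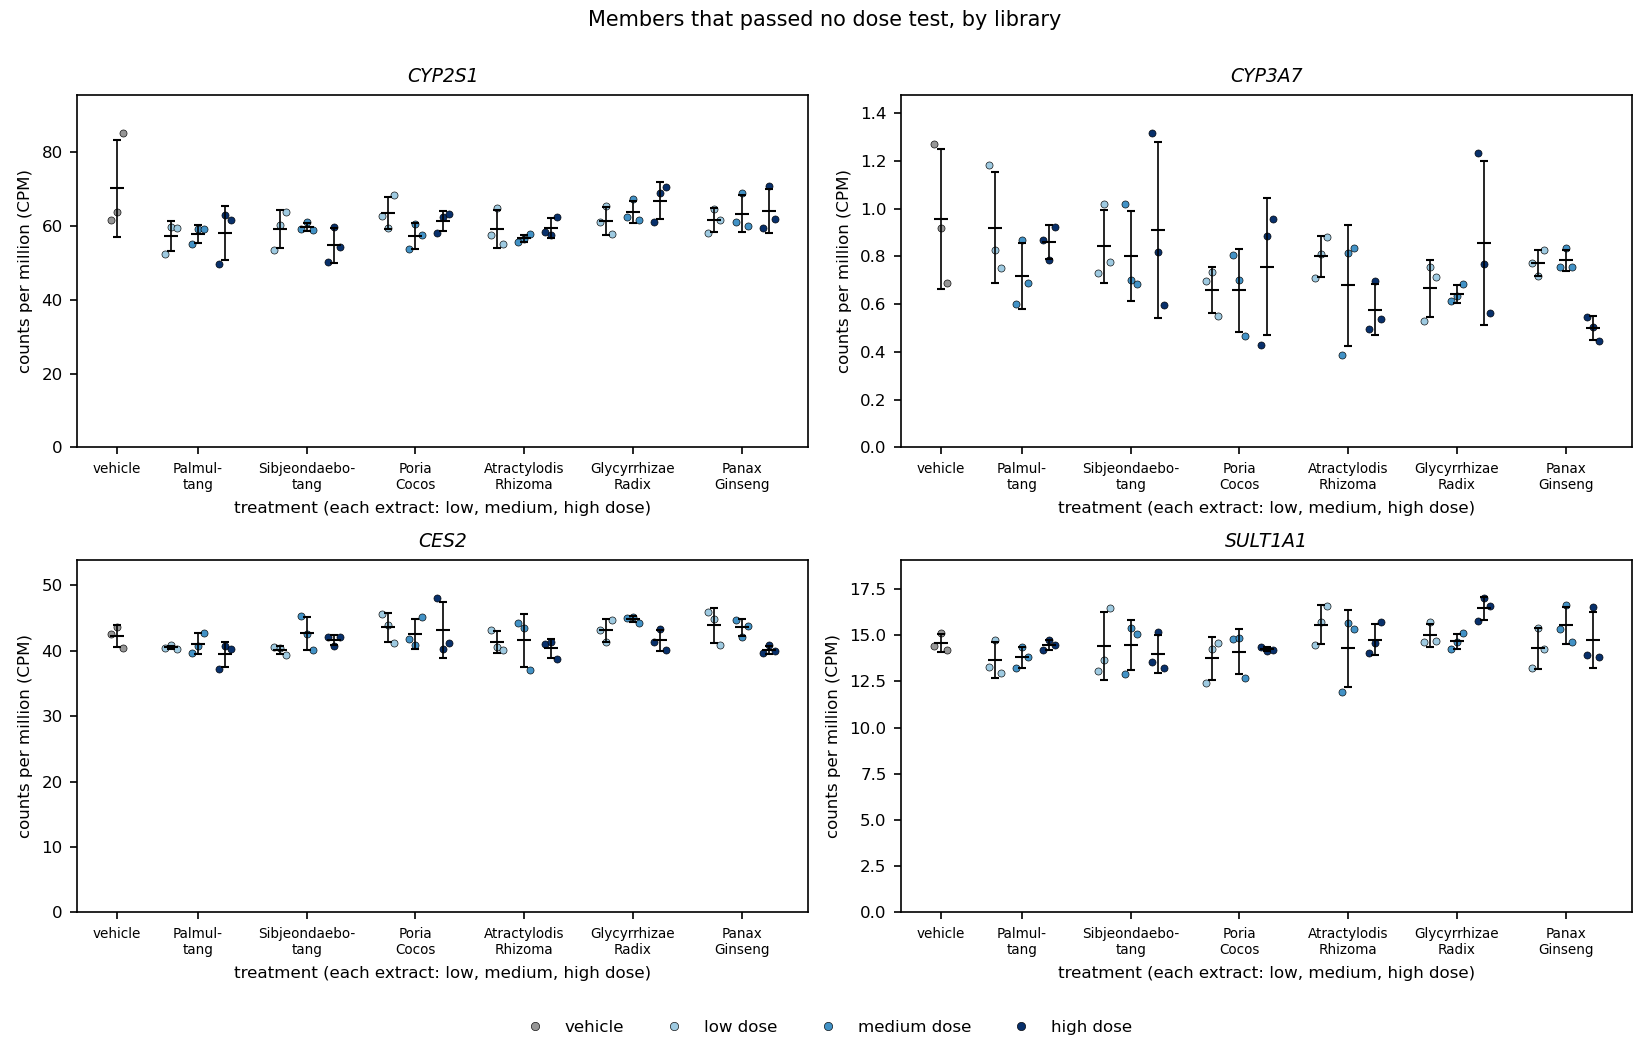
CPM of CYP2S1, CYP3A7, CES2 and SULT1A1 in every library (points), with the group mean and SD (bars, n = 3), for vehicle and for each of 6 extracts at the low, medium and high dose from left to right. Axes start at 0. CYP2S1 in vehicle library 3, at 85.1 CPM, lies above all other libraries, and no dose comparison within an extract was called for these 4 genes.

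Against vehicle, all 18 treated groups share the same 3 vehicle libraries, which carry no set number, so whatever that number stands for and treatment cannot be told apart. A difference in DMSO, not given for the extract libraries, cannot be told apart from treatment either. The high dose gave 22 calls of 60. In Glycyrrhizae Radix 6 of 10 members were called, all higher, where 34.3% of all genes were called, and in Atractylodis Rhizoma 6 of 10 (5 higher, 1 lower), where 22.5% were called. In Panax Ginseng 4 of 10 were called (3 higher, 1 lower) beside 18.8% of all genes, in Poria Cocos 3 of 10 (all higher) beside 25.0%, in Sibjeondaebo-tang 2 of 10 (both lower) beside 27.3%, and in Palmul-tang 1 of 10 (lower) beside 21.7%. In Palmul-tang, Sibjeondaebo-tang and Poria Cocos these shares lie near or below the background. CYP4F11 had 5.14, 4.92 and 4.503 CPM at the high dose of Glycyrrhizae Radix and 1.03, 1.32 and 1.01 CPM in vehicle (log2 difference 2.11 ± 0.21, SE, edgeR adjusted p = 1.6e-11). CYP4F3, CYP2B6 and CYP3A5 rose by 1.66 ± 0.19, 1.16 ± 0.13 and 0.69 ± 0.04 (log2, SE) against vehicle in that extract, near their differences from the low dose. The 11 calls that held under every alternative tried were those of CYP4F3 and EPHX1 in Poria Cocos, Atractylodis Rhizoma and Glycyrrhizae Radix, of CYP4F11 in Poria Cocos and Glycyrrhizae Radix, and of CYP2B6, CYP3A5 and AADAC in Glycyrrhizae Radix. The higher call of CYP3A5 in Atractylodis Rhizoma was not among them. It was lost without vehicle library 3 (0.08, edgeR adjusted p = 0.32) or without high-dose library 2 (0.11) or 3 (0.12). CYP3A7 was lower at the high dose of Panax Ginseng, at 0.545, 0.505 and 0.448 CPM, against 1.27, 0.917 and 0.688 CPM in vehicle. That difference of -0.93 ± 0.32 (log2, SE, adjusted p = 0.034) rests on few counts and was lost without vehicle library 1 (-0.67, adjusted p = 0.21) or 2 (-0.97, adjusted p = 0.06) or without high-dose library 1 (-1.01), 2 (-0.94) or 3 (-0.86) (adjusted p over all alternatives 0.024 to 0.21).

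At the medium dose 4 of 60 tests against vehicle were called, all lower. They were CYP2S1 and EPHX1 in Palmul-tang (2 of 10, beside 21.1% of all genes), CYP2S1 in Poria Cocos (1 of 10, beside 20.6%) and CYP2S1 in Atractylodis Rhizoma (1 of 10, beside 20.7%). No member was called at this dose in Sibjeondaebo-tang (20.1% of all genes), Glycyrrhizae Radix (13.1%) or Panax Ginseng (10.2%), where the edgeR counts over all genes at an unadjusted p below 0.05 were 5242, 4333 and 3915. DESeq2 added 1 call, CYP2S1 in Sibjeondaebo-tang. At the low dose 7 of 60 were called. In Palmul-tang CYP2S1 and EPHX1 were lower and CYP3A5 higher (3 of 10, beside 20.4%), in Sibjeondaebo-tang and in Atractylodis Rhizoma CYP2S1 and EPHX1 were lower (2 of 10 each, beside 20.0% and 22.4%), and no member was called in Poria Cocos (18.5%), Glycyrrhizae Radix (17.6%) or Panax Ginseng (13.0%), with 5023, 4859 and 4235 genes at an unadjusted p below 0.05. These shares lie near or below the background.

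The vehicle libraries of CYP2S1 had 61.5, 63.7 and 85.1 CPM, and library 3 lay above every treated library. CYP2S1 was called lower in 9 of 18 comparisons with vehicle, by 0.24 to 0.36 on the log2 scale. In the strongest, it had 50.2, 59.7 and 54.3 CPM at the high dose of Sibjeondaebo-tang (-0.36 ± 0.09, SE, edgeR adjusted p = 0.0019). Without vehicle library 3 this was -0.20 (adjusted p = 0.11; 1.6e-08 to 0.58 over all alternatives), and none of the 9 calls remained. None remained with the mitochondrial share as a covariate. That share was 10.2% in vehicle and 6.83% to 8.83% in the treated group means, so this covariate cannot separate the share from treatment. EPHX1 had 127.3, 126.0 and 140.4 CPM in vehicle, and its lower values at the low dose were 108.8, 108.5 and 105.8 CPM in Palmul-tang and 105.7, 113.1 and 114.5 CPM in Sibjeondaebo-tang, all below the 3 vehicle libraries. Without vehicle library 3 the Sibjeondaebo-tang difference was -0.19 (adjusted p = 0.063; 0.0001 to 0.18 over all alternatives), and the Palmul-tang call held there but not with the mitochondrial covariate (-0.21, adjusted p = 0.089; 1.7e-06 to 0.089 over all alternatives). The part of the mitochondrial share in these differences was not tested, because that covariate cannot separate it from treatment.

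To ask whether a dose effect differed between extracts, high minus low dose of 1 extract was tested against the mean of the other 5. By the IC20 rule given above, the top dose was 350 µg/mL in Glycyrrhizae Radix and 500 µg/mL in the other 5 extracts. Extract and dose, with any toxicity at that dose, therefore cannot be told apart in this test. The part of dose or toxicity in the differences was not tested. For Glycyrrhizae Radix 4 of 10 members were called, beside 21.5% of all genes. The dose effect of CYP4F11 was 2.21 in Glycyrrhizae Radix and averaged 0.75 (log2) in the other 5 extracts, a difference of 1.46 ± 0.23 (SE, edgeR adjusted p = 3.2e-06). For CYP2B6 it was 1.37 against a mean of 0.04, a difference of 1.33 ± 0.14 (adjusted p = 2.5e-10). CYP4F3 differed by 1.17 ± 0.21 (adjusted p = 3.1e-05) and CYP3A5 by 0.74 ± 0.05 (adjusted p = 4.7e-17). All 4 held under every alternative. EPHX1 (0.36 in Glycyrrhizae Radix, mean 0.28 in the others) and AADAC (0.61, mean 0.45) differed by 0.09 ± 0.07 and 0.16 ± 0.18 (log2, SE) and were not called (adjusted p of 0.41 and 0.60), which does not show that they responded alike. The other extracts gave 1 call in Palmul-tang (CYP3A5, beside 0.669% of all genes), 2 in Sibjeondaebo-tang (CYP2B6 and EPHX1, beside 1.21%), 1 in Poria Cocos (CYP3A5, beside 0.14%), and 0 in Atractylodis Rhizoma (0.268%, with 1156 genes at an unadjusted p below 0.05) and Panax Ginseng (0.109%, with 870), where DESeq2 also called no member. These 4 calls were negative, and none was called when Glycyrrhizae Radix was left out of the mean, an alternative chosen after seeing the data. There EPHX1 in Sibjeondaebo-tang stayed at -0.29, against -0.30 with it (adjusted p = 0.16), while CYP3A5 was at -0.18 in Palmul-tang and -0.07 in Poria Cocos and CYP2B6 at -0.35 in Sibjeondaebo-tang (adjusted p of 0.58, 1 and 0.57).

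**Figure D5:**
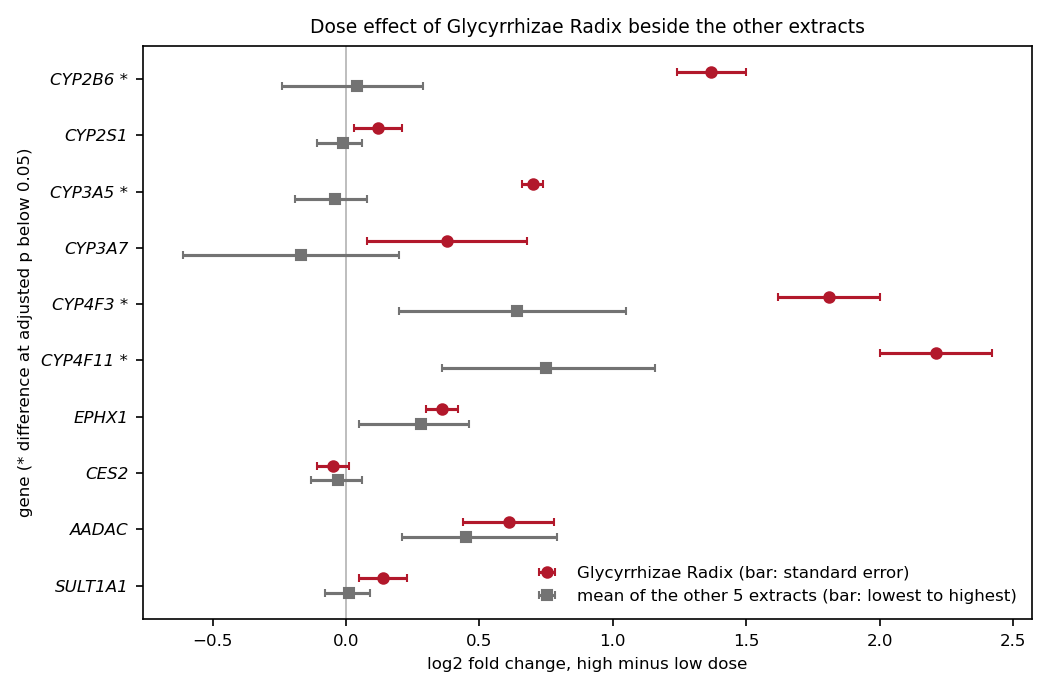
Log2 fold change, high minus low dose, of the 10 genes in Glycyrrhizae Radix (red circles, bars give the standard error) and its mean over the other 5 extracts (grey squares, bars run from the lowest to the highest extract). The high dose was 350 µg/mL in Glycyrrhizae Radix and 500 µg/mL in the other 5 extracts, so extract and dose cannot be told apart. Stars mark genes whose difference between the 2 had an adjusted p below 0.05: CYP2B6 (1.33), CYP3A5 (0.74), CYP4F3 (1.17) and CYP4F11 (1.46).

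Extracts of the same set were also compared at their high doses. Glycyrrhizae Radix at 350 µg/mL against Panax Ginseng at 500 µg/mL, which differ in dose, gave 5 of 10 members higher, beside 23.3% of all genes. They were CYP4F11 (4.85 ± 0.323 against 2.07 ± 0.166 CPM, SD, n = 3 each), CYP4F3 (5.37 ± 0.726 against 2.60 ± 0.539 CPM), CYP2B6 (7.05 ± 0.565 against 3.99 ± 0.562 CPM), CYP3A5 (169 ± 2.17 against 114 ± 7.84 CPM) and EPHX1 (161 ± 10.1 against 139 ± 10.4 CPM). The EPHX1 call (0.21 ± 0.06, log2, SE, edgeR adjusted p = 0.0090) was lost without library 3 of Glycyrrhizae Radix (0.16, adjusted p = 0.084) or of Panax Ginseng (0.15, adjusted p = 0.11; 0.0005 to 0.11 over all alternatives). Poria Cocos against Atractylodis Rhizoma, both at 500 µg/mL, gave 2 of 10 members lower, beside 0.985% of all genes. CYP3A5 had 98.3, 94.0 and 99.5 CPM in Poria Cocos and 111.2, 116.0 and 116.5 CPM in Atractylodis Rhizoma (-0.24 ± 0.04, log2, SE, adjusted p = 0.0010), without overlap. AADAC had 3.36, 2.66 and 3.28 CPM in Poria Cocos, against 5.44, 4.73 and 4.58 CPM in Atractylodis Rhizoma (-0.67 ± 0.16, adjusted p = 0.019). The AADAC call was lost without library 1 (-0.59) or 2 (-0.69) of Atractylodis Rhizoma or library 2 (-0.57) of Poria Cocos (adjusted p over all alternatives 0.0017 to 0.20). Palmul-tang against Sibjeondaebo-tang, both at 500 µg/mL, gave 0 of 10 members and 0.0% of all genes, with 918 genes at an unadjusted p below 0.05, and DESeq2 called no member.

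Other enzymes of drug metabolism gave a background to the 10. The share of all genes called between high and low dose, 24.9% in Glycyrrhizae Radix and 0.152% to 3.95% in the other 5 extracts, stands beside each count that follows. Of 29 further cytochromes P450 11 were expressed enough to test. In Glycyrrhizae Radix, high against low dose, 3 of the 11 rose and 2 fell. CYP1A1, the classic AHR target, averaged 26.2 ± 3.48 CPM at the high dose and 0.674 ± 0.12 CPM at the low dose (SD, n = 3 each), a log2 difference of 5.25 ± 0.33 (SE, edgeR adjusted p = 4.8e-18). CYP1B1, another AHR target, averaged 126 ± 6.29 CPM and 52.8 ± 0.214 CPM, and CYP4F12, a relative of CYP4F3 and CYP4F11 on chromosome 19, 8.53 ± 1.59 CPM and 3.68 ± 0.615 CPM at these doses (log2 1.26 and 1.20). CYP2W1, a cytochrome of colorectal tumours, was lower, at 0.272 ± 0.157 CPM at the high dose and 1.08 ± 0.14 CPM at the low dose (-1.91 ± 0.33, adjusted p = 7.6e-06). In the other extracts 1 of the 11 rose in Poria Cocos (CYP1B1, 0.30) and 1 in Atractylodis Rhizoma (CYP4F12, 0.44), 1 fell in Panax Ginseng, and none was called in the formulas. CYP2U1, named after its values were seen, was the other one that fell in Glycyrrhizae Radix and the one that fell in Panax Ginseng.

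Of 24 further esterases, epoxide hydrolases and oxidases 14 were tested. In Glycyrrhizae Radix 3 rose and 4 fell, where 24.9% of all genes were called, and none was called in the other 5 extracts, where far fewer genes were called overall. PON1, paraoxonase, fell to 0.159 ± 0.112 CPM at the high dose, against 1.08 ± 0.114 CPM at the low dose (-2.69 ± 0.38, log2, SE, edgeR adjusted p = 1.2e-07), FMO5 fell by 0.74, and EPHX4 and MAOB rose by 1.27 and 0.57 on the log2 scale. NCEH1, which also rose, and PON2 and ESD, which also fell, were named after their values were seen. Of 19 further sulfotransferases and PAPS synthesis genes 12 were tested. PAPSS2, which makes the sulfate donor PAPS, fell by 0.43 in Glycyrrhizae Radix and PAPSS1 by 0.20 in Atractylodis Rhizoma. Of the 9 electron donors of microsomal cytochromes none was called in Glycyrrhizae Radix. POR averaged 95.4 ± 1.61 CPM at its high dose and 89.7 ± 4.52 CPM at its low dose (0.09 ± 0.05, log2, SE, edgeR adjusted p = 0.19). In the other extracts 1 donor fell in Atractylodis Rhizoma (CYB5B, by 0.24).

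Of 31 transcriptional regulators of drug metabolism 26 were tested, and in Glycyrrhizae Radix 11 rose and 7 fell at the high dose, beside 2306 genes higher and 1789 lower of the 16445 tested (24.9%). HNF4A, the hepatocyte and enterocyte factor that binds many CYP promoters, fell to 76.3 ± 0.324 CPM at the high dose, against 102 ± 7.27 CPM at the low dose (-0.42 ± 0.06, log2, SE, edgeR adjusted p = 1.4e-06). FOXA2 fell by 0.77, while CEBPB, NR0B2 and NR1H4, which encodes the bile acid receptor FXR, rose by 0.69, 0.67 and 1.44 (log2). In the other extracts 0 to 2 regulators rose and 0 to 2 fell. All 15 NRF2 reference targets tested rose at the high dose in each of the 4 single-herb extracts, and 10 rose in Sibjeondaebo-tang and 5 in Palmul-tang, none falling. Their median log2 fold change was 0.86 in Glycyrrhizae Radix, 0.63 in Poria Cocos, 0.59 in Atractylodis Rhizoma, 0.39 in Panax Ginseng, 0.27 in Sibjeondaebo-tang and 0.24 in Palmul-tang. AKR1C1, an aldo-keto reductase of this list, averaged 44.3 ± 1.97 CPM at the high dose of Glycyrrhizae Radix and 14.4 ± 1.60 CPM at its low dose (log2 1.62), and AKR1C2, HMOX1 and SLC7A11 rose by 1.48, 1.32 and 1.77 there. The colon markers KRT20 (0.78), PHGR1 (-0.72) and VIL1 (-0.63), the leukocyte marker CD68 (0.60), the fibroblast marker LUM (0.93) and the hepatocyte marker SERPINA1 (-0.21) also changed between these doses. VIL1 also fell in Atractylodis Rhizoma (-0.19) and Panax Ginseng (-0.20), and SERPINA1 in Sibjeondaebo-tang (-0.22). The part of these markers in the members' differences was not tested.

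The genes most like each member were taken by Pearson's r of mean log2 CPM over the 18 treated groups, among genes of at least 5 CPM. For CYP4F3 they were PTGR1 (0.980), UGT1A10 (0.979) and UGT1A8 (0.976), and without the Glycyrrhizae Radix high dose these were 0.970, 0.958 and 0.948 over 17 groups. For EPHX1 they included FTL (0.947) and RAB15 (0.940), and for AADAC they were SHF (0.932), ABCG2 (0.915) and TNFRSF21 (0.894). For CYP4F11 they were TSKU (0.970), SPSB1 (0.966) and TFE3 (0.965). CYP3A5 was most like MIA3 (0.972), CCPG1 (0.960) and SHH (0.959), and CYP2B6 most like WDR44 (0.959), VASP (0.952) and PPARD (0.947). Without the Glycyrrhizae Radix high dose these were 0.718 to 0.850 for CYP3A5 and 0.722 to 0.772 for CYP2B6. CYP2S1 was most like ZYX (0.960), CES2 like PKN3 (0.895), SULT1A1 like LENG9 (0.850, and 0.756 without that group) and CYP3A7 like PROX1 (0.828). Among the members, CYP4F3 and EPHX1 had r = 0.92 and kept 0.93 without that group, whereas CYP2B6 and CYP3A5 had 0.88 and 0.30. All points share libraries, so these values carry no test.

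Angelicae Gigantis Radix had 1 library per dose and no replicate check. Its high-dose library held 2.76 CPM of CYP4F3, against 1.38 to 2.00 CPM in the vehicle libraries, with 1.75 CPM at its low dose and 2.03 CPM at its medium dose. EPHX1 (142 CPM), AADAC (3.83 CPM) and CES2 (44.5 CPM) also lay above the 3 vehicle libraries, whose highest values were 140, 3.71 and 43.6 CPM. CYP2S1 (54.2 CPM), SULT1A1 (13.9 CPM) and CYP3A7 (0.562 CPM, 11 counts) lay below them. CYP2B6 (3.48 CPM), CYP3A5 (99.8 CPM) and CYP4F11 (1.28 CPM) lay within the vehicle range.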

How the data were processed

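RNA of HT29 cells was sequenced on 60 libraries of 22 groups. Per the submitters' processing notes, reads were handled with FastQC 0.11.9, Trim Galore 0.6.5, STAR 2.7.3a and RSEM 1.3.3. The annotation release and strand setting are not given in the sources used here. The deposited table holds expected counts per Ensembl gene (7.7% to 9.78% of values per library were not whole), which were rounded. Its 213 columns of other samples were not used. Of 60675 identifiers 56558 had a symbol.

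The 57 libraries of the 19 groups with 3 libraries entered 1 edgeR 4.0.16 fit (R 4.3.3; TMM factors 0.956 to 1.031; filterByExpr, 16445 genes; quasi-likelihood F test; 38 residual degrees of freedom) with 39 contrasts, each adjusted by Benjamini-Hochberg. CPM is scaled by TMM. DESeq2 1.42.0 and the alternatives of the closing section changed 1 choice at a time. The code was tested on simulated data. Replicate pairs differed by more than counting noise (chi-square per degree of freedom 2.47 to 26.17, the highest 2, 26.17 and 18.88, in pairs with library 1 of the Poria Cocos low dose). Shared 100-base stretches were searched in GENCODE transcripts, 100 bases being the read length per the labels.

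All 10 members are named. From each list up to 4 called genes with the largest dose effect are named, and in addition CYP3A4, CYP1A1, POR, NR1I2 and HNF4A. The members, lists and rules were chosen with earlier results of these data known. Lists were described by counts and medians and not tested. 1 gene among those most like a member is not reported here.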

Additional observations from a re-analysis of the deposited data

Results flagged for a closer look

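In 8 cases the dose effect of a member (high minus low dose) in 1 extract differed from its mean in the other 5 extracts by a test of that difference (edgeR's quasi-likelihood test, adjusted p below 0.05). In Glycyrrhizae Radix the differences were 1.46 for CYP4F11, 1.33 for CYP2B6, 1.17 for CYP4F3 and 0.74 for CYP3A5 on the log2 scale. With 3 libraries per group, all 4 held under every alternative. The top dose of Glycyrrhizae Radix, set by its IC20, was 350 µg/mL, against 500 µg/mL in the other 5 extracts. Extract and dose cannot be told apart here, and the part of dose or toxicity was not tested. In Sibjeondaebo-tang the differences were -0.60 for CYP2B6 (adjusted p = 0.028) and -0.30 for EPHX1 (adjusted p = 0.013), in Palmul-tang -0.32 for CYP3A5 (adjusted p = 8.4e-05) and in Poria Cocos -0.22 for CYP3A5 (adjusted p = 0.037). With Glycyrrhizae Radix left out of the mean these 4 were -0.35, -0.29, -0.18 and -0.07, with adjusted p of 0.57, 0.16, 0.58 and 1. The Poria Cocos value was also lost without library 1 of its low dose (-0.20, adjusted p = 0.19), among other libraries. Over all alternatives the 4 adjusted p ran from 0.0064 to 0.57, from 3.2e-05 to 0.16, from 8.3e-08 to 0.58 and from 0.0045 to 1.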

How the results depend on the processing

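Of the 17 member calls between high and low dose 11 held under every alternative, among them all 6 in Glycyrrhizae Radix. Against vehicle 11 of 22 held at the high dose, 0 of 4 at the medium and 0 of 7 at the low dose. With the mitochondrial share as a covariate the calls against vehicle were 12 at the high, 0 at the medium and 0 at the low dose, and CYP2S1 in Palmul-tang at the high dose changed sign to 0.01 (adjusted p = 0.96; 7.1e-05 to 0.96 over all alternatives). The share was higher in vehicle than in every treated group mean, so these losses cannot separate it from treatment. In fits of the compared groups alone they were 2 at the medium and 3 at the low dose. Of the 8 called differences between extracts, the 4 outside Glycyrrhizae Radix were all lost without Glycyrrhizae Radix in the mean. The 4 in Glycyrrhizae Radix do not have it in their mean, so this alternative could not change them. The causes were not tested. Leaving out 1 library at a time gave 14 to 17 calls for high against low, 0 to 0 for medium against low, 16 to 23, 1 to 5 and 1 to 9 for high, medium and low dose against vehicle, 5 to 9 for the differences between extracts and 6 to 7 within sets. The lowest counts at the medium and low dose, 1 and 1, came without vehicle library 3. The 5 differences between extracts came without library 3 of the Sibjeondaebo-tang low dose. Same-numbered libraries were not paired: correlations of their deviations ran from -0.111 to 0.189 for high against low, and in no comparison were all above 0.1. With the replicate number as a block the calls were 18, 25, 5, 7, 9 and 7 for high against low, the 3 doses against vehicle, the differences between extracts and within sets, and with replicate block within set 18 for high against low. DESeq2 gave no adjusted p for 17 of the 60 high-against-low tests, the Poria Cocos calls of CYP4F3 and CYP4F11 among them. Over single members 6522 alternative values kept their side of the threshold or, for levels, stayed within the spread (values that were not called could change sign). Of the others 144 lost the call, 39 gained one, 1 called value changed sign, and 7 levels per kb moved with the longest transcript as the length. CYP3A7, CYP4F11 and CYP4F3 had 9, 17 and 27 counts in their lowest libraries, which limits what could be called.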
